A study of Spinacia oleracea with 12 samples.

Results

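The genotype-by-tissue interaction asks, gene by gene, whether the preference of a transcript for leaf or root differs between a high-oxalate and a low-oxalate spinach. For each gene the leaf-root preference of a genotype was the mean of its 3 leaf libraries minus the mean of its 3 root libraries on log2(FPKM + 0.1), where FPKM is the number of fragments divided by the length of the gene and by the depth of the library. The interaction was the preference in PI175311 minus the preference in Bloomsdale, which is the same number as the genotype difference in leaf minus the genotype difference in root. A gene was a member if 3 or more of the 12 libraries reached 1 FPKM, which gave 19549 of the 25495 genes in the table. Of the members, 560 reached that level in exactly 3 libraries, and 473 of the genes left out reached it in exactly 2. A positive interaction, called higher here, means that the preference lay further toward leaf (or less far toward root) in PI175311, and a negative one, called lower, that it lay further toward root.

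Leaves and roots divide the work of a plant. Leaf cells carry photosynthesis and photorespiration, and root cells carry water and nutrient uptake, so many genes are transcribed mainly in 1 of these organs whatever the genotype. Oxalate, which spinach stores in large amounts, can be formed from glyoxylate, from oxaloacetate or by cleavage of ascorbate. The study lists breakdown by oxidation, by decarboxylation and through oxalyl-CoA, and states that oxalate decarboxylase activity has not been shown in plants. The enzymes of these routes need not be active in the same organ. An interaction on the log scale means that the ratio of leaf to root differs between the genotypes, which includes genes seen in 1 organ only whose level there differs.

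The plants were 6 weeks old, and 4 groups of 3 libraries were compared: leaf of PI175311, labelled high in oxalate, leaf of Bloomsdale, labelled low, and root of each. The labels name no transgene or treatment, and all groups shared 1 growth chamber regime (12 h of light, 23 °C). The labels give a nitrogen supply of 200 ppm for every library, while the methods of the study describe a nitrogen-free Hoagland's solution, and this was not resolved. The labels speak of 3 independent plants of each genotype, but not whether a leaf and a root library with the same number came from the same plant. Only 1 high and 1 low genotype were sampled, so a difference is between these 2 genotypes and cannot be told apart from any other property in which they differ. These are bulk tissues, in which fewer cells of a type and less RNA per cell cannot be told apart. The files do not pair the gene IDs with names, positions or sequences, and no ID matched any of 39719 annotated spinach genes, so tissue marker genes could not be checked, and functions are given only for 15 genes whose IDs the text of the study names.

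Depth was similar across libraries. The fragments recovered from the FPKM values ranged from 18436133 to 25243357 per library, and between 15723 and 18037 genes reached 1 FPKM. The FPKM of all genes summed to between 902716 and 1018751 in leaf and to between 701799 and 801113 in root. The balance of leaf-high against root-high genes within a genotype depended on scaling, as given with the leaf-root calls. The median interaction over all members was 0.08 as deposited, -0.0038 after median-of-ratios scaling and -0.0013 after quantile normalization. Bloomsdale leaf 2 lay furthest from its group, with a median absolute deviation of 0.300 on the log2 scale, followed by PI175311 root 2 at 0.288. Bloomsdale roots 1 and 2 lay closest, at 0.131.

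Most genes with a preference in both genotypes had it for the same organ. Across the 19549 genes the preference in PI175311 and that in Bloomsdale had a Pearson r of 0.879 and a Spearman rho of 0.808, a description over genes, which are not independent replicates. Preferences spread slightly less in PI175311, with an SD over genes of 2.30 against 2.49. A preference of at least 1 in size in both genotypes was seen for 7564 genes, of which 7403 had the same sign and 161 (2.13%) opposite signs. In the limma fit over all 12 libraries, with Benjamini-Hochberg adjustment over all members, 3108 genes were called leaf-high (15.9%) and 9295 root-high (47.5%) in PI175311, and 2853 leaf-high (14.6%) and 9783 root-high (50.0%) in Bloomsdale. Leaf-high genes were thus 25.1% of the leaf-root calls in PI175311 and 22.6% in Bloomsdale. That split depended on scaling, at 48.2% and 47.2% after median-of-ratios scaling and 44.9% and 43.8% after quantile normalization. The median preference was -0.64 in PI175311 and -0.70 in Bloomsdale as deposited, -0.09 and -0.06 after median-of-ratios scaling, and -0.14 and -0.12 after quantile normalization, and preferences of single genes below are read against these values.

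**Figure D1:**
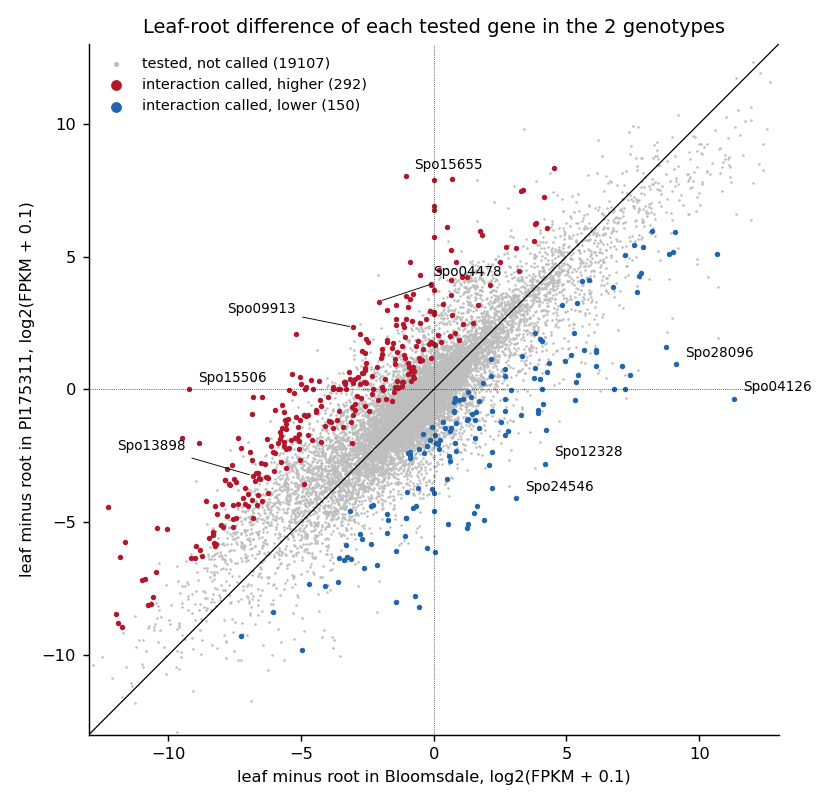
Leaf minus root difference of each tested gene in Bloomsdale (x axis) and PI175311 (y axis), both as mean difference on log2(FPKM + 0.1), with the diagonal marking equal preference. The 292 genes called higher (red) lie above the diagonal, the 150 called lower (blue) below it, and the 19107 others (grey) spread along it.

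The interaction was called for 442 genes (2.26%) at an adjusted p under 0.05, 292 of them higher (1.49%) and 150 lower (0.767%). At an unadjusted p under 0.05 there were 3213 genes (16.4%). The called genes were chosen through this same value, so a larger size than that of all members follows from the choice. Their median size was 3.21 on the log2 scale, with a range from 0.91 to 11.66, against a median size of 0.43 over all members. An interaction of at least 1 in size was seen for 4782 members (24.5%), of which 440 were called, and one of at least 3 for 681, of which 251 were called. In all 442 called genes the 9 leaf-root differences between single libraries of PI175311 did not overlap the 9 of Bloomsdale, which held for 1822 members (9.32%) in all, 5.98% of members in the higher and 3.34% in the lower direction. The calls were spread over expression levels, with 3.63% of the 881 genes under a mean of 1 FPKM, 2.44% of the 8819 between 1 and 10, 1.90% of the 8774 between 10 and 100 and 2.60% of the 1075 above. The median standard error of the interaction was 0.84, 0.53, 0.33 and 0.43 in these ranges, so a gene under 1 FPKM needed a larger difference to be called. A gene with a mean under 1 FPKM passed the filter through some libraries only, which can be those that make its interaction. The part of this in the rate of that range was not tested.

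The called genes were next sorted by their leaf-root call in each genotype, which uses the same libraries and is a description. Among the 292 higher genes the largest class, of 114 genes (39.0%), was root-high in both genotypes, a share close to that over all members. Its median preference was -3.38 in PI175311 and -6.84 in Bloomsdale. A further 79 (27.1%) were root-high in Bloomsdale with no leaf-root call in PI175311, and 44 (15.1%) were leaf-high in PI175311 with no call in Bloomsdale. Leaf-high in PI175311 and root-high in Bloomsdale were 32 genes (11.0%), with median preferences of 1.54 and -1.44, and 23 (7.88%) were leaf-high in both. In the order given, these classes held 7733, 2011, 714, 39 and 2355 of all 19549 members. The 150 lower genes were spread more evenly over the classes. Of these, 39 (26.0%) were root-high in PI175311 without a call in Bloomsdale, 38 (25.3%) leaf-high in Bloomsdale without a call in PI175311, 28 (18.7%) root-high in both and 26 (17.3%) leaf-high in both. The remaining 19 (12.7%) were root-high in PI175311 and leaf-high in Bloomsdale, with median preferences of -1.44 and 1.72. Over all members the classes of the lower genes held, in the order given, 1541, 477, 7733, 2355 and 21 genes. The 4658 members without a leaf-root call in either genotype held 0 called interactions.

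**Figure D2:**
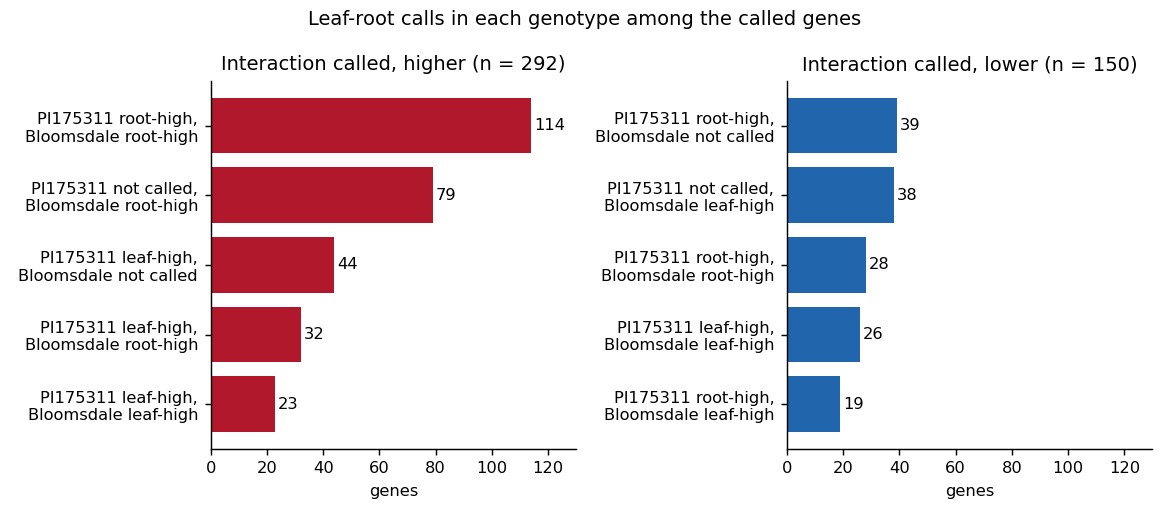
Number of called genes (x axis) in each combination of leaf-root calls in the 2 genotypes, for interactions called higher (left, red) and lower (right, blue). Root-high in both genotypes is the longest bar among the higher genes, with 114, while the longest among the lower genes, root-high in PI175311 without a call in Bloomsdale, holds 39.

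In part of these genes an organ was silent. Leaf was under 0.1 FPKM in all 3 libraries of both genotypes for 508 members, and 65 of them were called higher and 4 lower (13.6%). For such a gene the interaction is in effect the genotype difference in root alone: the 65 higher genes had a median PI175311 minus Bloomsdale difference of -3.18 in root and 0 in leaf, and 57 of them belonged to the 114 that were root-high in both. Root was silent by the same measure in both genotypes for 109 members, of which 4 were called higher and 7 lower. Without these 617 genes, 223 higher and 139 lower genes were left among 18932 members (1.91%). A genotype could also be silent in both organs, which leaves its preference undefined: this held for 72 members in PI175311, with 10 called higher and 2 lower, and for 114 in Bloomsdale, with 7 higher and 2 lower. In the 18000 members with no silent group the interaction was called for 183 higher and 115 lower (1.66%), against 109 and 35 of the 1549 with at least 1 silent group (9.30%). Silent groups were defined on the same values as the interaction, and such a gene passes the filter only through its other groups. A silent group also can vary little on this scale. These rates are therefore a description, and the part of the filter and the floor in them was not tested.

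The genotype difference itself was larger in root for 200 of the 292 higher genes and in leaf for 92. Among the 150 lower genes it was larger in leaf for 79 and in root for 71. The share over all members was not counted, so these counts are not read as a trait of the called genes. The 292 include the 65 genes with leaf silent in both genotypes, whose median leaf difference was 0.

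The number of calls rested on single libraries. With each library left out in turn the total ranged from 106 genes without Bloomsdale root 2 to 840 without Bloomsdale leaf 2. It was 124 without Bloomsdale root 1, 143 without Bloomsdale leaf 1, 209 without Bloomsdale leaf 3, 201 without PI175311 leaf 3 and 215 without PI175311 leaf 1, and between 386 and 527 without any of the other 5. Of the 442 genes, 96 (65 higher and 31 lower) stayed called in all 12 of these fits. The signs of the 442 could not change in these fits, because the single-library differences of the genotypes did not overlap. By median absolute deviation, Bloomsdale leaf 2, whose loss raised the total most, was the library furthest from its group. Bloomsdale roots 1 and 2, whose loss lowered the total most, were the nearest to theirs. By the SD of the deviations, PI175311 roots 1, 2 and 3 lay further (0.659, 0.683 and 0.645) than Bloomsdale leaf 2 (0.603). The part of these deviations in the counts was not tested.

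**Figure D3:**
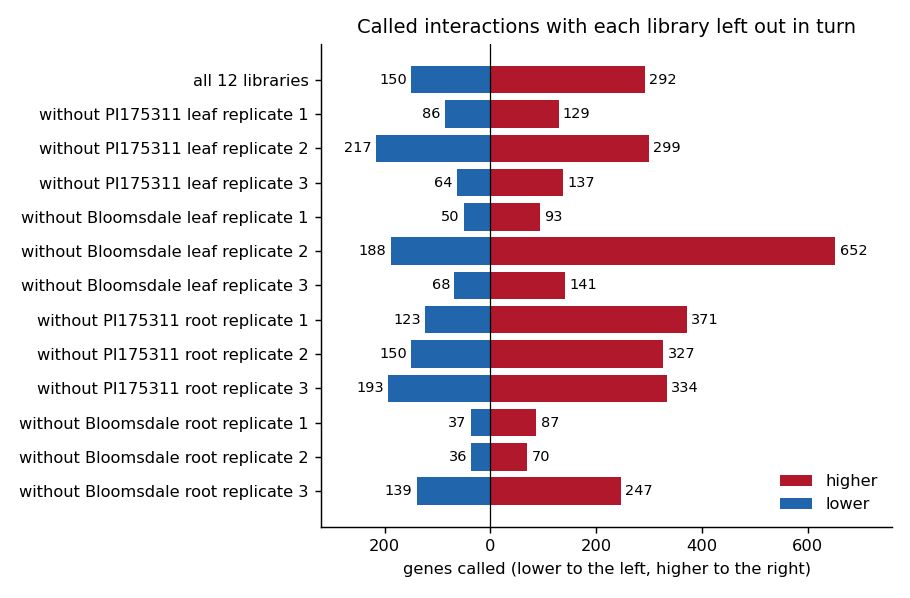
Genes called higher (red, to the right) and lower (blue, to the left) with all 12 libraries and with each library left out in turn, on an axis of gene counts. The full set gives 292 and 150, the fit without Bloomsdale leaf 2 gives 652 and 188, and the fit without Bloomsdale root 2 gives 70 and 36.

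Genes restricted to 1 organ were followed from the genotype in which they were chosen to the other. A gene counted as restricted with at least 10 FPKM in all 3 libraries of an organ and under 0.5 in all 3 of the other. By this measure 96 genes were restricted to leaf and 176 to root in PI175311, and 181 and 329 in Bloomsdale. Of the 96, 60 were also restricted to leaf in Bloomsdale (62.5%, 95% exact binomial interval 52.0 to 72.2), which was 33.1% (26.3 to 40.5) of the 181. Of the 176 root genes, 112 were shared (63.6%, 56.1 to 70.7), which was 34.0% (28.9 to 39.4) of the 329. These intervals cover counting error only. The genes not shared mostly missed a threshold and seldom changed organ: a preference of at least 1 for the same organ was seen in the other genotype for 92 of 96, 174 of 176, 177 of 181 and 328 of 329 genes. The median preference in the other genotype was 7.15 and 8.16 in size for the leaf and root genes chosen in PI175311, and 6.67 and 6.25 for those chosen in Bloomsdale. As deposited, only Spo15655 had a preference of at least 1 for the opposite organ. That preference was not called and fell under 1 in size with other scalings, as given for this gene with the largest interactions.

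Genes of oxalate formation and breakdown were looked at next, in the order of the routes. The study named most of these 15 genes from the same libraries, so they are not an independent sample. Of the 14 that passed the filter, 1 was called higher and 0 lower in the interaction, beside 2.26% of all members, and 6 had an unadjusted p under 0.05, beside 16.4%. The interaction was above 0 for 9 and below 0 for 5, with a median of 0.85 against 0.08 over all members. Spo06441, an oxalate decarboxylase-like gene, was under the filter at 0.177 to 0.780 FPKM in all 12 libraries.

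Isocitrate lyase splits isocitrate into glyoxylate and succinate in the glyoxylate cycle, and its gene, Spo13898, was the called member. It stood at 0.940, 0.300 and 0.487 FPKM in the PI175311 leaf libraries, at 0, 0 and 0.0197 in Bloomsdale leaf, at 4.82, 6.32 and 6.57 in PI175311 root and at 5.91, 15.1 and 18.7 in Bloomsdale root. Root was thus above leaf in both genotypes with no overlap, PI175311 leaf was above Bloomsdale leaf with no overlap, and the roots of the genotypes overlapped. The leaf values rested on 88 fragments over the 3 PI175311 libraries and 1 over the 3 of Bloomsdale, against 841 and 2020 in root. The preference was -3.25 in PI175311 and -6.82 in Bloomsdale, and the interaction was 3.56 (SE 0.66, 95% interval 2.11 to 5.02, n = 3 libraries in each of 4 groups, limma, Benjamini-Hochberg adjusted p = 0.0241). Its size depends on the value added before the logarithm, since Bloomsdale leaf was close to 0: it was 1.55 (adjusted p = 0.0934) with 1 FPKM added and 6.21 (adjusted p = 0.0146) with 0.01. The call was also lost with limma-voom on the recovered fragments (adjusted p = 0.0852), with leaf and root of the same number taken as 1 plant (0.0746), and without PI175311 leaf 1 (adjusted p = 0.0518), PI175311 leaf 3 (0.0523), Bloomsdale leaf 1 (0.0627) or Bloomsdale root 2 (0.0815), where the interaction stayed between 3.20 and 3.61.

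Peroxisomal beta-oxidation supplies the acetyl-CoA that the glyoxylate cycle uses. Spo01759, an acyl-CoA oxidase, which catalyses the first step, was at 71.1, 35.2 and 58.6 FPKM in PI175311 leaf, 22.4, 39.0 and 14.7 in Bloomsdale leaf, 52.5, 61.8 and 40.9 in PI175311 root and 71.0, 72.0 and 44.2 in Bloomsdale root. Bloomsdale leaf held the 2 lowest values, and all groups overlapped with another. The interaction was 1.42 (SE 0.52, limma adjusted p = 0.200). Spo21149, the multifunctional protein MFP2 of the later steps, lay between 42.5 and 71.5 FPKM in PI175311 leaf, 21.4 and 31.1 in Bloomsdale leaf, 43.2 and 72.7 in PI175311 root and 36.2 and 47.5 in Bloomsdale root, with an interaction of 0.88 (SE 0.37, adjusted p = 0.263). Neither passed the test.

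Oxaloacetate can be hydrolysed to oxalate and acetate, a reaction known from fungi, and Spo21624 is the putative spinach gene OXAC2. Its FPKM were 80.1, 220 and 118 in PI175311 leaf, 108, 71.6 and 125 in Bloomsdale leaf, 6.47, 8.26 and 10.3 in PI175311 root and 0.946, 1.09 and 6.11 in Bloomsdale root. It was leaf-high in both genotypes, and PI175311 root was above Bloomsdale root in every library, while the leaves overlapped. The preference was 3.95 in PI175311 and 5.64 in Bloomsdale, an interaction of -1.70 (SE 0.86, limma adjusted p = 0.358). Bloomsdale root 3 was the high root library of its group, and without it the interaction was -2.52 (adjusted p = 0.0455). That was the only 1 of 12 fits with a library left out that called the gene, and 0 of 11 alternative fits called it.

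Alanine-glyoxylate aminotransferase turns glyoxylate into glycine and so draws on the same pool as oxalate. Its gene, Spo12360, stood at 2.31, 1.92 and 1.84 FPKM in PI175311 leaf, 0.221, 0.774 and 0.145 in Bloomsdale leaf, 29.5, 23.8 and 44.1 in PI175311 root and 26.1, 34.6 and 36.2 in Bloomsdale root. The leaves did not overlap, with PI175311 higher, and the roots did. The preference was -3.90 in PI175311 and -6.29 in Bloomsdale, an interaction of 2.39 (SE 0.59, 95% interval 1.10 to 3.68) that missed the threshold at a limma adjusted p of 0.0631. The 9 differences between single libraries of each genotype did not overlap. Without Bloomsdale leaf 2, the highest of the 3 Bloomsdale leaves, the interaction was 2.94 (adjusted p = 0.00635). That was the only 1 of 12 fits with a library left out that called the gene, and 0 of 11 alternative fits called it.

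Glyoxylate can also be reduced to glycolate, and 3 glyoxylate/succinic semialdehyde reductase-like genes were seen almost only in PI175311. The study describes Spo04579 and Spo00830 as truncated proteins, and Spo26769 as sharing homology with an Arabidopsis member of this family. Spo04579 was at 16.4, 0 and 9.64 FPKM in PI175311 leaf and 13.6, 26.1 and 0 in PI175311 root, and at 0 in all 6 Bloomsdale libraries. Spo00830 and Spo26769 had the same pattern at lower levels, with 0 in PI175311 leaf 2, at most 0.106 in PI175311 root 3, at most 0.0484 in Bloomsdale, and between 0.943 and 7.74 in the other 4 PI175311 libraries. In each organ 1 PI175311 library lacked them, so the interactions of -0.39 (SE 3.00), -0.68 (SE 2.12) and -0.68 (SE 1.63) say little about organ preference, and each changed sign when single libraries were left out.

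Ascorbate is oxidised before it is cleaved to oxalate. Spo12052, an ascorbate oxidase, was at 60.8, 58.6 and 37.3 FPKM in PI175311 leaf, 3.48, 7.74 and 12.0 in Bloomsdale leaf, 13.9, 1.38 and 0.696 in PI175311 root and 4.43, 3.02 and 1.80 in Bloomsdale root. PI175311 leaf lay above every other library, and PI175311 root 1 lay above both other roots of its group. The preference was 4.33 in PI175311 and 1.22 in Bloomsdale, an interaction of 3.10 (SE 1.24, limma adjusted p = 0.241). Spo12053, the other ascorbate oxidase, had a like pattern, with an interaction of 2.95 (SE 1.35, adjusted p = 0.307). How fragments that fit more than 1 gene were assigned is not known, so these genes may not be separate evidence. Without PI175311 root 1 the interactions were 4.34 (adjusted p = 0.0176) and 4.30 (adjusted p = 0.0197). For each gene that was the only 1 of 12 fits with a library left out that called it, and 0 of 11 alternative fits did. Spo08328, an ascorbate peroxidase, which uses ascorbate to reduce hydrogen peroxide, was at 1330 to 3723 FPKM in PI175311 leaf, 180 to 386 in Bloomsdale leaf, 897 to 2026 in PI175311 root and 99.8 to 418 in Bloomsdale root. PI175311 was above Bloomsdale in both organs without overlap, and the interaction was 0.88 (SE 0.81, adjusted p = 0.651).

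The 3 tested genes listed under oxalate breakdown had interactions under 1 in size. For the decarboxylase-like genes the study reports poor homology to the known fungal genes and calls for functional work on the spinach enzymes. Spo19759, oxalate decarboxylase-like, was at 81.7 to 116 FPKM in PI175311 leaf, 106 to 157 in Bloomsdale leaf, 14.8 to 21.9 in PI175311 root and 27.6 to 50.5 in Bloomsdale root, with an interaction of 0.83 (SE 0.39, limma adjusted p = 0.323). It was leaf-high in both genotypes. Spo25084, another of this family, was at 37.3 to 65.7 FPKM in PI175311 leaf, 69.7 to 89.1 in Bloomsdale leaf, 130 to 152 in PI175311 root and 113 to 141 in Bloomsdale root, an interaction of -0.81 (SE 0.30, adjusted p = 0.201). As deposited, both genotypes had higher values in root, without overlap of the organs, but after median-of-ratios scaling the Bloomsdale preference of -0.76 was -0.11 (adjusted p = 0.731). Spo04424, acyl-activating enzyme 3, which makes oxalyl-CoA in Arabidopsis, lay between 37.9 and 127 FPKM in all libraries, and its interaction of 0.10 had a 95% interval from -0.78 to 0.99.

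**Figure D4:**
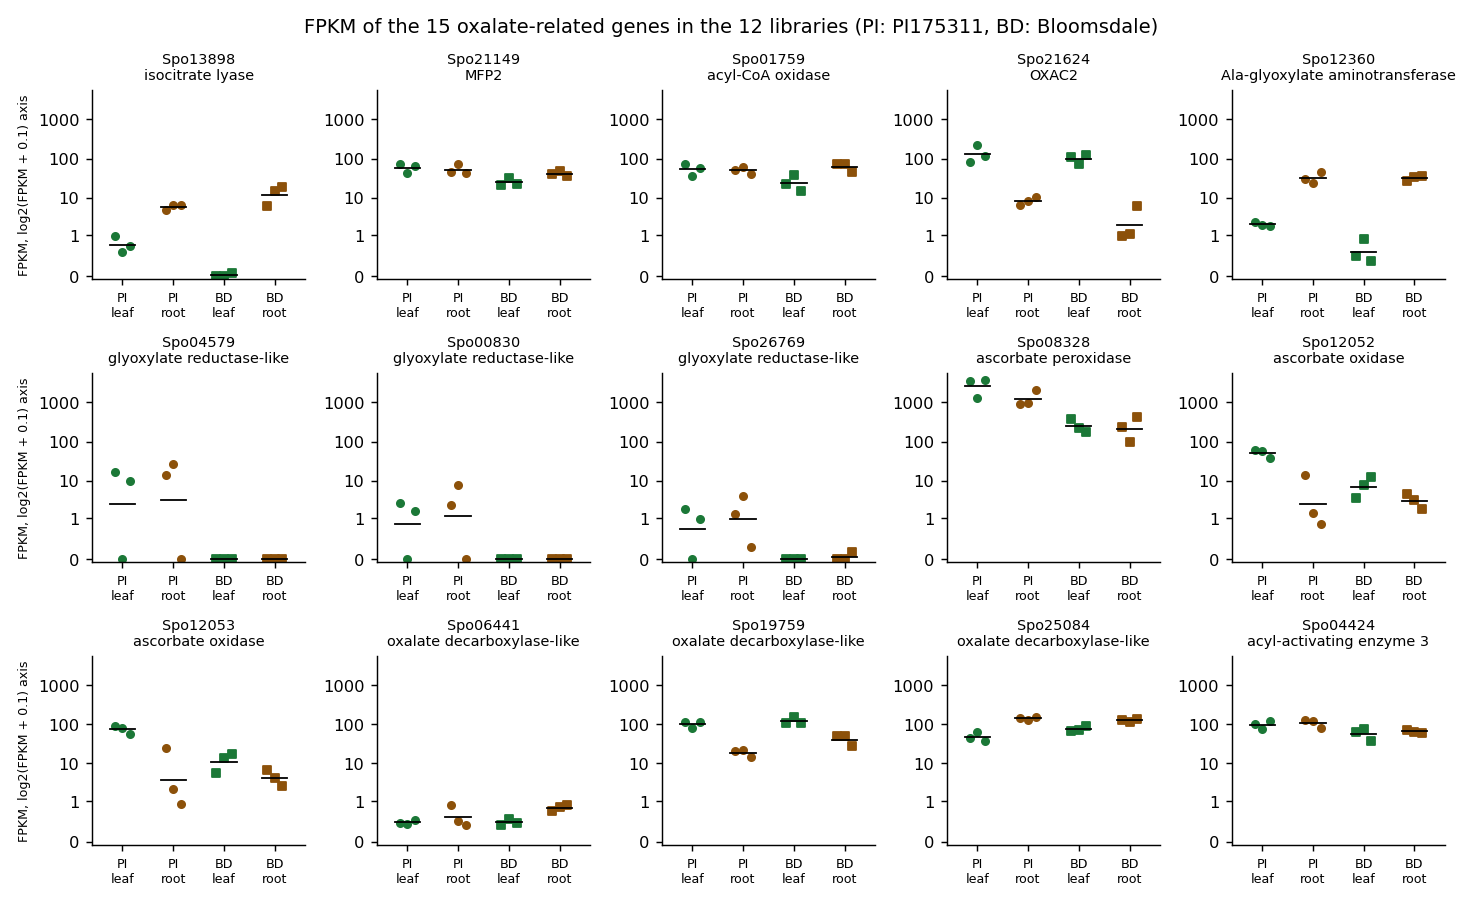
FPKM of the 15 oxalate-related genes on a log2(FPKM + 0.1) axis, with a panel per gene, a point per library (circles PI175311, squares Bloomsdale, green leaf, brown root) and a bar at the group mean on that scale. Spo13898 and Spo12360 show Bloomsdale leaf below PI175311 leaf with overlapping roots, and Spo12052 and Spo12053 show PI175311 leaf above all other groups.

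The genes with the largest interactions have no function in the files, and they are given by their IDs. Spo15506 was at 0 in all 6 PI175311 libraries, at 0, 0.792 and 0 FPKM in Bloomsdale leaf and at 133, 142 and 99.3 in Bloomsdale root. Only Bloomsdale root held it at a high level. It reached 1 FPKM in those 3 root libraries alone, so it passed the filter through the same group that makes the interaction. The interaction was 9.22 (SE 0.996, limma adjusted p = 0.00213), read as a description, since PI175311 had no measurable preference. The limma adjusted p was 6.9e-06 with 1 FPKM added and 0.0251 with 0.01. The plainer measure is between roots. There the mean of Bloomsdale was at least 1684-fold higher than the level that 3 fragments over the PI175311 root group would give (0.0740 FPKM).

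Spo15655 was at 46.7, 110 and 49.1 FPKM in PI175311 leaf, 8.11, 0.128 and 1.47 in Bloomsdale leaf, 0.106, 0.468 and 0.0234 in PI175311 root and 2.85, 2.91 and 2.91 in Bloomsdale root. PI175311 leaf was above every other library and PI175311 root below every Bloomsdale root, while leaf and root overlapped in Bloomsdale. The preference was 8.03 in PI175311 and -1.06 in Bloomsdale, where it was not called, and the interaction was 9.09 (SE 1.47, limma adjusted p = 0.0148). The Bloomsdale preference was -0.43 after median-of-ratios scaling and -0.05 after quantile normalization.

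Spo04126 had the largest interaction in size among the called genes. It stood at 102, 1524 and 74.5 FPKM in PI175311 leaf, 2535, 1377 and 2708 in Bloomsdale leaf, 223, 343 and 312 in PI175311 root and 1.05, 0.236 and 1.40 in Bloomsdale root. Bloomsdale root was below every other library, PI175311 leaf 2 lay within the range of Bloomsdale leaf, and the other 2 PI175311 leaves lay below it. The preference was -0.35 in PI175311 and 11.31 in Bloomsdale, with an interaction of -11.66 (SE 1.37, limma adjusted p = 0.00308). Spo15655 and Spo04126 stayed called with any 1 library left out and under all 11 alternative fits. Spo15506 did so too, but it was at 0 throughout PI175311. Leaving out a library of that genotype could therefore not change its interaction, and its calls are not read as added support.

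Spo28096 was at 29.0, 91.3 and 12.3 FPKM in PI175311 leaf, 54.2, 85.9 and 80.9 in Bloomsdale leaf, 12.9, 4.24 and 80.7 in PI175311 root and 0, 0 and 0.118 in Bloomsdale root. The leaves overlapped, and Bloomsdale root, with 2 fragments in all, was below every other library. The preference was 0.95 in PI175311 and 9.12 in Bloomsdale, an interaction of -8.17 (SE 1.34, limma adjusted p = 0.0156). The call was lost without Bloomsdale root 1 or 2, with an interaction of -7.99 in either fit (adjusted p up to 0.0534), and with limma-voom (adjusted p = 0.184) or leaf and root of the same number taken as 1 plant (0.0804).

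Opposite preferences, called in both genotypes together with the interaction, were found for 51 genes, of 60 members (0.307%) with opposite leaf-root calls. With the replicate number as a block in roots the count was 30. By size alone, 76 members had a preference of at least 1 toward leaf in PI175311 and toward root in Bloomsdale, 30 of them called (39.5%), and 85 had the reverse, 19 of them called (22.4%). The 4 described here have the 2 highest and the 2 lowest interactions among these genes.

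Spo09913 was at 2.53, 1.97 and 2.49 FPKM in PI175311 leaf, 0, 0 and 0.0753 in Bloomsdale leaf, 0.0704, 0.568 and 0.857 in PI175311 root and 0.546, 0.798 and 1.56 in Bloomsdale root. Leaf was above root in PI175311 and below it in Bloomsdale without overlap in either. The preference was 2.34 in PI175311 and -3.03 in Bloomsdale, and the interaction was 5.37 (SE 0.88, limma adjusted p = 0.0154), still called with any 1 library left out. After quantile normalization the Bloomsdale preference was -1.66 (adjusted p = 0.0679). Bloomsdale leaf held 1 fragment in all.

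Spo04478 was at 7.63, 3.80 and 5.90 FPKM in PI175311 leaf, 0.0868, 2.13 and 0.0894 in Bloomsdale leaf, 0.501, 0.561 and 0.370 in PI175311 root and 1.76, 2.75 and 1.01 in Bloomsdale root. PI175311 leaf was above every other library, and in Bloomsdale the organs overlapped through leaf 2. The interaction was 5.38 (SE 1.16, limma adjusted p = 0.0398), but with a library left out it stayed called only without PI175311 leaf 2 and without Bloomsdale leaf 2, with an adjusted p of up to 0.124 in the other 10 fits. The call was also lost with 0.01 FPKM added (adjusted p = 0.0709), with limma-voom (0.0506), and with the replicate number as a block over the 4 groups (0.0507), within genotype (0.0539) or in roots (0.0564). The preference of -2.07 in Bloomsdale was -1.57 (adjusted p = 0.127) after median-of-ratios scaling and -0.73 (adjusted p = 0.438) after quantile normalization.

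Spo24546 showed the reverse. It was at 0, 0.157 and 0.132 FPKM in PI175311 leaf, 1.96, 1.30 and 12.2 in Bloomsdale leaf, 4.03, 2.71 and 2.38 in PI175311 root and 0.298, 0 and 1.35 in Bloomsdale root. Root was above leaf in PI175311 without overlap, and in Bloomsdale leaf was mostly above root, with root 3 reaching just over leaf 2. The preference was -4.08 in PI175311 and 3.09 in Bloomsdale, an interaction of -7.17 (SE 1.39, limma adjusted p = 0.0269). The call was lost without leaf 1 or leaf 3 of either genotype and without Bloomsdale root 1 or 2 (adjusted p up to 0.0733), with 0.01 FPKM added (0.0791) and with limma-voom (0.0677).

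Spo12328 was at 3.18, 7.29 and 2.05 FPKM in PI175311 leaf, 4.08, 0.602 and 6.11 in Bloomsdale leaf, 13.4, 75.9 and 16.8 in PI175311 root and 0, 0 and 0.200 in Bloomsdale root. The leaves overlapped, while PI175311 root was the highest group and Bloomsdale root, with 4 fragments in all, the lowest. The interaction was -6.98 (SE 1.28, limma adjusted p = 0.0233), and the call was lost with the same 6 libraries left out in turn (adjusted p up to 0.0727), with limma-voom (0.139) and with the replicate number as a block over the 4 groups (0.0506). The preference of -2.79 in PI175311 was -2.24 (adjusted p = 0.0724) after median-of-ratios scaling, and that in Bloomsdale was 4.19.

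**Figure D5:**
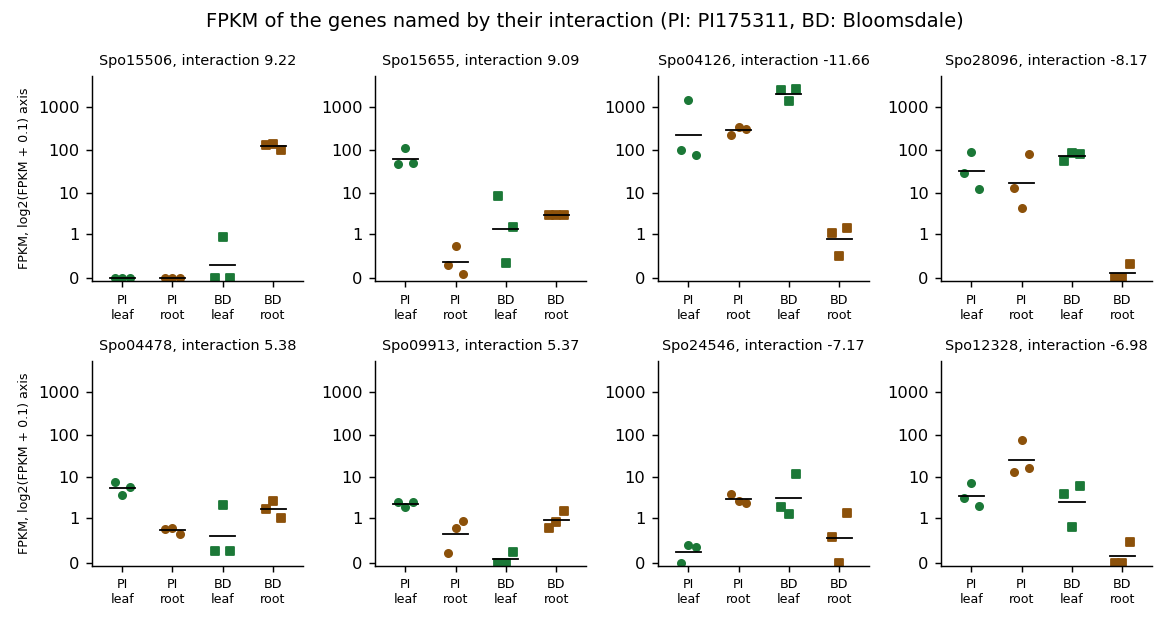
FPKM of the 8 genes named by their interaction, on a log2(FPKM + 0.1) axis, with a panel per gene, a point per library (circles PI175311, squares Bloomsdale, green leaf, brown root) and a bar at the group mean on that scale. The upper panels hold the largest interactions, from 9.22 to -11.66, and the lower panels genes whose preference was called in opposite directions, such as Spo09913 with leaf above root in PI175311 and below it in Bloomsdale.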

How the data were processed

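RNA from leaf and root of PI175311 and Bloomsdale was sequenced as paired-end reads, with 3 libraries in each of 4 groups, numbered as in the labels. The authors deposited 1 table of FPKM values, and the values used here are theirs. The study's methods describe TopHat on a Bowtie index with HTSeq counts, whereas the submitters' processing notes list fastp, HISAT2 2.1.0, featureCounts and DESeq2, and which of these made the FPKM, and the genome build, is not given in the sources used here. Their choice could change the level of genes with similar copies.

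FPKM plus 0.1 was log2-transformed for genes that reached 1 FPKM in 3 or more of 12 libraries. A single limma model (limma 3.58.1, R 4.3.3) with 4 group means, trend and robust empirical Bayes was fitted to all 12 libraries, with Benjamini-Hochberg adjustment over the 19549 genes and a threshold of 0.05. The interaction and the leaf-root contrast of each genotype came from this fit. The study itself gives no interaction test. Whole fragments were solved from the FPKM for 21552 of 21554 genes above 0 in at least 6 libraries (tolerance 1e-04 fragments plus 2e-08 of their number), against 12 of 1000 with altered library totals, and limma-voom on them called 158 genes.

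The genes named are the 15 oxalate-related genes, the 2 highest and 2 lowest interactions among called genes without overlap of single-library differences, and the 2 highest and 2 lowest among the other called genes of opposite preference. Members and lists were chosen with earlier results of these data known. Alternatives were 1 or 0.01 FPKM added, no filter, only genes with a mean of 5 FPKM or more, scaling by median-of-ratios or quantiles, limma without trend and robust options, limma-voom, 3 replicate blocks, an added size of 1, unadjusted p-values and each library left out. The labels name no batch. Deviations from the group means of same-numbered roots of the genotypes were correlated over genes at 0.219, 0.200 and 0.219, each above 0.1, and roots were therefore treated as paired in 1 of the blocks. In leaf these were 0.042, -0.190 and -0.162. Between same-numbered leaf and root of 1 genotype they ranged from -0.183 to 0.318, so a number was not taken to be a plant. Differently numbered roots of the genotypes ranged from -0.159 to -0.062. Differently numbered leaf and root libraries of Bloomsdale ranged from -0.435 (leaf 2 with root 3) to 0.329 (leaf 2 with root 1). These extremes are larger in size than the values of same-numbered roots. Gene families, raw reads, oxalate contents and RT-qPCR values were not analysed here.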

Additional observations from a re-analysis of the deposited data

Results flagged for a closer look

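The leaf-root difference of 9 named genes differed between PI175311 and Bloomsdale by the interaction test over the 12 libraries (limma, Benjamini-Hochberg adjusted p under 0.05), with the leaf-root difference of PI175311 minus that of Bloomsdale given on the log2(FPKM + 0.1) scale. Among the oxalate-related genes this was isocitrate lyase, Spo13898, with 3.56. The largest values were 9.22 for Spo15506, 9.09 for Spo15655, -11.66 for Spo04126 and -8.17 for Spo28096. Among genes with opposite preferences the values were 5.38 for Spo04478, 5.37 for Spo09913, -7.17 for Spo24546 and -6.98 for Spo12328. All but Spo13898 were picked for the size of this same value, which makes it a description of them. Spo13898 is not an independent pick either, since the study named it from its leaf difference in the same libraries. Its call was kept in 8 of 12 fits with a library left out and in 7 of 10 alternative fits.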

How the results depend on the processing

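Counts of higher and lower interactions moved with the settings. In place of 292 and 150 there were 639 and 303 with 1 FPKM added, 152 and 77 with 0.01 FPKM, 96 and 67 at a mean of at least 5 FPKM, 112 and 46 with limma-voom and 1990 and 1223 at an unadjusted p under 0.05. With the replicate number as a replicate block they were 203 and 100, with a block within genotype 80 and 50, and with a block in roots 310 and 165, which kept 366 of the 442 calls. In place of 51 genes of opposite preference there were 33 with 0.01 FPKM added, 21 at a mean of at least 5 FPKM, 27 with limma-voom, 25 with the replicate block within genotype and 30 with that in roots. The higher call of Spo13898 fell to 0 with 1 FPKM added, at a mean of at least 5 FPKM (where it was not tested), with limma-voom and with the replicate block within genotype. The root-high count of PI175311 was 4924 under median-of-ratios scaling and 5340 under quantile normalization, and Bloomsdale had 4444 leaf-high and 4974 root-high, and 4502 and 5783. With a difference of 2 in place of 1, 18 tested and 9 called genes had opposite preferences, in place of 161 and 49. With at least 5 FPKM and under 0.1, the shared share was 47.8% of PI175311 leaf genes and 24.7% of leaf and 26.5% of root genes of Bloomsdale.

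With each library left out, higher calls ranged from 70 to 652, lower calls from 36 to 217, opposite preferences from 9 to 86, and oxalate-related calls from 0 to 3 higher and 0 to 1 lower. Leaf-high counts ranged from 2835 to 3180 in PI175311 and 2652 to 2951 in Bloomsdale, and root-high counts from 7709 to 9685 and 8175 to 10422. Among the named genes, the interaction changed sign for 4 that were not called: Spo04579 ranged from -2.91 to 1.94, Spo00830 from -2.48 to 0.79, Spo26769 from -1.87 to 0.59 and Spo04424 from -0.19 to 0.33. The cause of these moves was not tested. Groups of 3 libraries and a median standard error of 0.84 under 1 FPKM limit what can be called in low genes.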

Other observations

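Some genes were on (at least 1 FPKM) in part of a genotype's libraries and off (under 0.05 FPKM) in the rest, in both organs. In Bloomsdale this held for 45 genes, of which 42 were on in leaf 1, leaf 3 and root 3 and off in leaf 2, root 1 and root 2. In PI175311 it held for 54 genes, and no combination of libraries was shared by more than 5 of them. The Bloomsdale split is unequal between the organs, so it enters the Bloomsdale preference of these genes. Over all members, deviations of Bloomsdale leaf 2 were correlated with roots 1 and 2 at 0.329 and 0.264, and with root 3 at -0.435. Leaves 1 and 3 were correlated with root 3 at 0.287 and 0.318. The part of this in the interactions was not tested. The on-off measure was chosen after the values were seen.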
